A study of Rattus norvegicus with 54 samples.

Results

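Liver from adult rats of postnatal day 90 (P90) was compared with liver from foetuses of gestation day 16 (F16), with 4 arrays at each age, to ask which genes are wholly on or wholly off at each end of liver development. These 8 arrays are part of the 24 liver arrays of a series of 54 rat liver and skeletal muscle arrays. The other liver arrays, 4 each at F20, F22, P1 and P4, served for the shared estimate of spread and for placing each change in time. All animals were wild-type Wistar rats without any treatment. The P90 livers came from 3-month-old adults on standard chow given ad libitum under a twelve-hour light cycle, and the F16 livers came from foetuses taken by Caesarean section. Within each age the labels name biological replicates. Neither the labels nor the methods state the sex or whether foetuses shared a litter, so the p-values measure the spread between these samples only.

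The foetal liver is at the same time a young gland and the main blood-forming organ. At F16 hepatoblasts, the precursors of hepatocytes and bile duct cells, surround islands of red cell precursors. The adult liver no longer makes blood, and its hepatocytes rarely divide. They make most plasma proteins, form bile acids, break down amino acids and clear drugs and steroids through the cytochrome P450 enzymes and the conjugating enzymes that act after them.

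Each value is a log2 signal of one probe set, so a difference of 1 is a 2-fold change, and a gene is given by its brightest probe set (14506 genes). Since a probe set has its own unspecific signal, "off" was read against 226 probe sets of olfactory, vomeronasal and bitter taste receptors, genes of sensory cells. A gene was off at an age where all 4 arrays lay at or below the 95th percentile of these receptor probe sets on the same array, a level of 6.34 to 6.53 on the P90 arrays and 6.17 to 6.21 on the F16 arrays. A gene was on where all 4 arrays lay at or above the 75th percentile of the probe sets with a gene symbol, which lay at 9.12 to 9.18 on the P90 arrays and at 9.33 to 9.36 on the F16 arrays. "Off" is a class of signal and does not exclude a few transcripts. Arrays of one age correlated at 0.997 or more at P90 and at 0.992 or more at F16, against 0.820 to 0.832 between the ages. The labelled tissue was borne out by the hepatocyte markers, whose mean signal was 12.95 to 12.96 over the P90 arrays and 11.2 to 11.3 over the F16 arrays.

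Most of the liver transcriptome differed between the ends. Of 15310 probe sets with 1 symbol, 11246 (73.5%) passed an adjusted p of 0.05 (called genes from here on), 5809 of them higher and 5437 lower at P90. Counted in genes, 5642 (38.9%) were higher at P90, 4966 (34.2%) were lower and 3898 were not called, and in 10121 genes (69.8%) the P90 and F16 arrays did not overlap. Large changes were fewer: 1446 genes were higher and 1976 lower by over 2-fold, and 166 were higher and 98 lower by over 16-fold. The median difference over all genes was 0.09. The balance of directions rests on the scaling: 53.2% of the called genes were higher at P90 on the deposited scale, and 37.4% once each array was centred on its receptor median, which moved the median difference of all genes to -0.06. With each array centred on the median of the probe sets with 1 symbol, the share was 62.4% and the median 0.21. Small differences therefore have no firm direction, and the genes described below mostly differ by far more than these shifts.

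**Figure D1:**
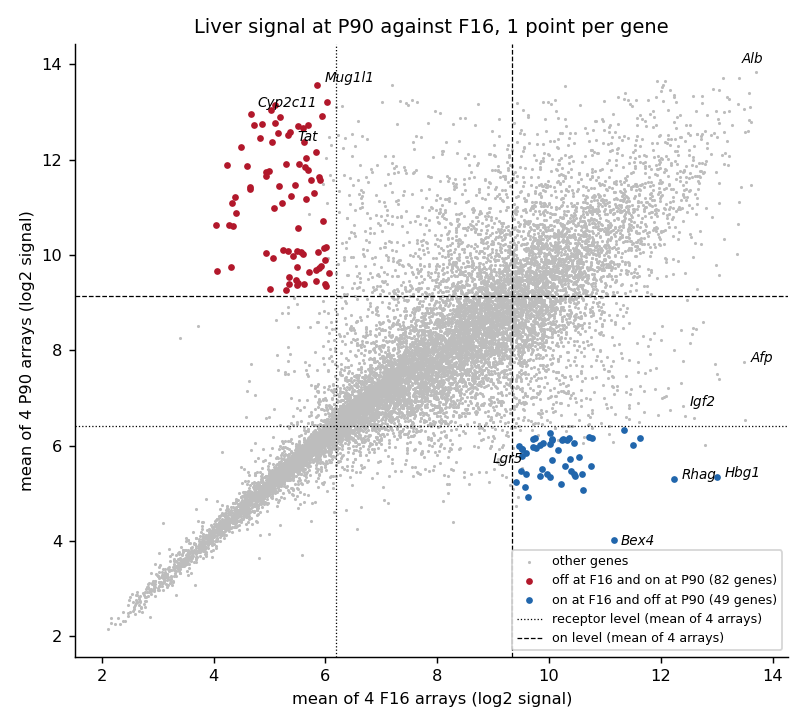
Mean log2 signal of 4 P90 arrays (vertical axis) against the mean of 4 F16 arrays (horizontal axis), 1 point per gene, with dotted lines at the receptor level and dashed lines at the on level. The 82 genes off at F16 and on at P90 stand at the upper left and the 49 genes on at F16 and off at P90 at the lower right, apart from the diagonal on which most genes lie.

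A complete switch was rare. In all, 82 genes (0.565% of 14506) were off at F16 and on at P90, and 49 genes (0.338%) were on at F16 and off at P90. These numbers rest on the limits: with other off or on levels the 82 became 48 to 107 and the 49 became 9 to 109. Of the 3322 genes on at P90, 2.47% had been off at F16, and of the 3214 genes on at F16, 1.52% were off at P90. Far more genes, 2129, were on at both ages, and 2759 lay in the receptor range at both. Since the on and off genes were taken from their F16 and P90 signals, their differences are given as a description. Each is given as at least N-fold against the receptor level, the lowest signal that can be told from unspecific signal here. The gap between the F16 and P90 arrays of these genes is likewise set by the rule.

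The 82 genes that were off at F16 and on at P90 belonged mostly to the chemistry of the adult hepatocyte. By role, as assigned after the values were seen, 13 were cytochromes P450, 10 were conjugating enzymes, 14 were esterases, oxidases, dehydrogenases or reductases, 12 encoded secreted proteins, 7 were transporters and 6 were enzymes of amino acid, nucleoside or pyruvate metabolism. A further 11 were interferon-induced, macrophage or cell death genes, 4 were hormone or cytokine receptors or thyroid hormone enzymes, and 5 had other roles. The lower bounds of the fold ran from 8.4 to 165. They ran from 13.9 to 109 for the cytochromes P450, from 11.7 to 165 for the secreted proteins, from 11.2 to 72.8 for the conjugating enzymes and from 8.4 to 15 for the interferon, macrophage and cell death genes.

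The largest measured difference was that of *Cyp2c11*, a steroid hydroxylase of the adult rat liver known as male-typical. Its signal was 12.95, 12.99, 12.95 and 12.95 in the P90 livers, against 4.81, 4.76, 4.64 and 4.45 in the F16 livers. The groups lay far apart, with a measured difference of 8.30 ± 0.11 (SE), or at least 109-fold. Since the F16 signal was in the receptor range, the order among genes of this class is not fixed, and *Mug1l1*, *Pigr*, *Rup2* and *Mug1* had higher lower bounds (165, 130, 124 and 115). *Cyp2c12*, known in rats as female-typical, had 11.82, 11.82, 11.89 and 12 at P90, against 4.38, 4.11, 4.27 and 4.20 at F16, at least 51.7-fold. Both were thus bright on every P90 array and in the receptor range on every F16 array, as the class requires. The Cyp2c genes are close relatives and their probes may share targets, so these values cannot be split with certainty between them. *Cyp3a2*, which oxidises steroids and many drugs, had 12.62, 12.65, 12.63 and 12.72 at P90, against 6.0, 5.37, 5.34 and 5.68 at F16, at least 88.2-fold. *Cyp7a1*, the rate-limiting enzyme of bile acid synthesis, had 10.70, 10.72, 10.65 and 10.83 at P90, against 6.15, 6.12, 6.03 and 5.53 at F16, at least 23.1-fold. The other P450 genes of the class were *Cyp2c13*, *Cyp2c6v1*, *Cyp2a2*, *Cyp3a18*, *Cyp2c22*, *Cyp3a9*, *Cyp4a1*, *Cyp2d3* and *Cyp2b2*.

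Conjugation and the remaining oxidoreductases showed the same picture. *Sult1c3*, a sulphotransferase, had 12.31, 12.38, 12.40 and 12.42 at P90, against 4.96, 5.04, 5.03 and 5.14 at F16, at least 72.8-fold. *Hsd3b5*, a steroid dehydrogenase, had 12.76, 12.73, 12.74 and 12.76 at P90, against 4.96, 4.87, 4.84 and 4.78 at F16, at least 93.8-fold. *Pon1*, a serum esterase carried on high-density lipoprotein, had 12.72, 12.71, 12.74 and 12.75 at P90, against 5.65, 5.81, 5.61 and 5.70 at F16, at least 92.8-fold. In none of these genes did any F16 array come near a P90 array, which the rule of the class ensures. The aldehyde oxidases *Aox1* and *Aox3* were at least 57.7-fold and 41.6-fold higher, and the carboxylesterase *Ces1c* at least 52.2-fold.

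Among the secreted proteins, *Orm1*, the acute phase protein orosomucoid, had 12.89, 12.89, 12.93 and 12.85 at P90, against 5.09, 5.22, 5.11 and 5.36 at F16, at least 104-fold. *Mug1*, a protease inhibitor of the macroglobulin family, had 13.01, 13.08, 13.05 and 13.01 at P90, against 5.22, 4.91, 4.75 and 5.19 at F16, at least 115-fold. Its relatives *Mug1l1* (on at P90) and *Mug2* (just outside the class) may share its probes. *Pigr*, counted with the transporters and not with the secreted proteins, is the receptor that carries immunoglobulin A into bile. Its signal was 13.22, 13.22, 13.21 and 13.20 at P90, against 5.94, 5.99, 6.17 and 5.99 at F16, at least 130-fold. *Rup2* had 13.16, 13.09, 13.18 and 13.18 at P90, against 4.81, 5.17, 5.25 and 5.17 at F16, at least 124-fold. *Orm1*, *Mug1*, *Pigr* and *Rup2* were off in each of the 4 foetal livers, as the class requires.

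Amino acid metabolism was represented by *Tat* and *Tdo2*, which open the breakdown of tyrosine and tryptophan. *Tat* had 12.54, 12.46, 12.57 and 12.47 at P90, against 5.66, 4.99, 5.35 and 5.36 at F16, at least 79.6-fold. *Tdo2* had 12.47, 12.39, 12.44 and 12.52 at P90, against 4.83, 4.79, 4.84 and 4.87 at F16, at least 76.7-fold. For both genes the lowest adult array stood far above the highest foetal one, as the class requires. *Pdk4*, a kinase that inhibits pyruvate dehydrogenase, was at least 47.9-fold higher and *Gnmt*, a glycine methyltransferase, at least 34.3-fold.

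Hormone receptors were few. *Esr1*, the oestrogen receptor alpha, had 9.62, 9.63, 9.62 and 9.59 at P90, against 6.01, 6.0, 6.10 and 6.16 at F16, at least 10.7-fold. *Prlr*, the prolactin receptor, had 9.27, 9.19, 9.28 and 9.41 at P90, against 5.03, 4.87, 5.11 and 4.99 at F16, at least 8.5-fold. *Dio1*, which activates thyroid hormone, had 11.67, 11.63, 11.64 and 11.64 at P90, against 5.80, 5.79, 5.91 and 6.06 at F16, at least 43.8-fold. By the rule of the class, no array of one age reached those of the other in *Esr1*, *Prlr* and *Dio1*. *Vsig4* and *Cd5l*, genes of liver macrophages, were at least 14.8-fold and 9.1-fold higher, and the interferon-induced *Usp18* and *Rtp4* at least 14.7-fold and 15-fold. In a whole-tissue sample, more cells of a type and more RNA per cell cannot be told apart.

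**Figure D2:**
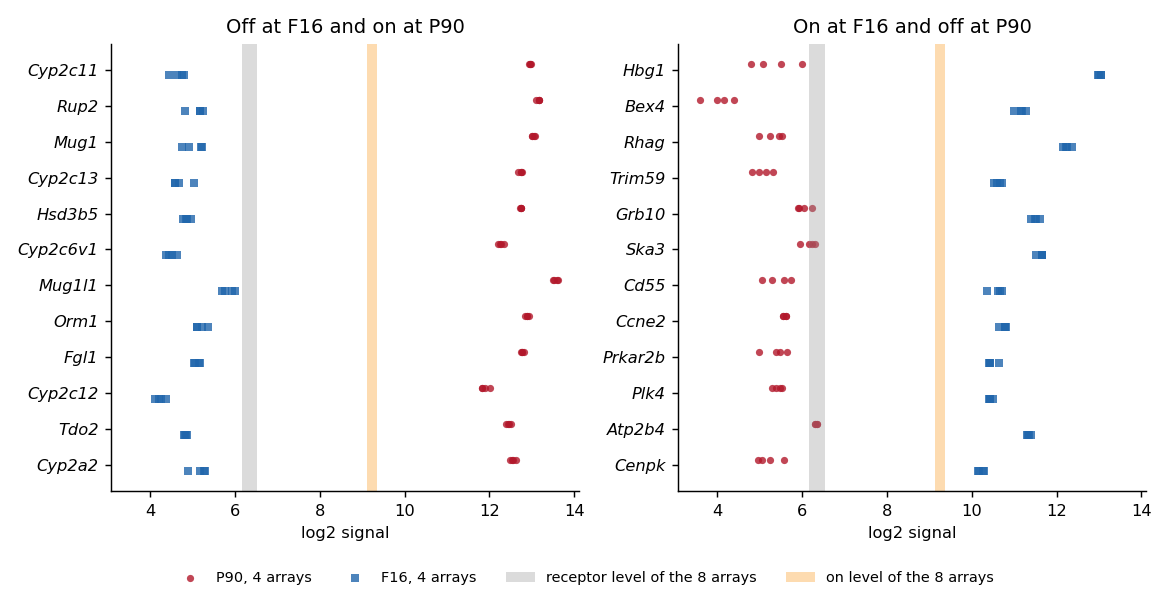
Log2 signal on each array for the 12 genes with the largest measured difference in each class, with 4 P90 arrays as circles and 4 F16 arrays as squares, and with the receptor level (grey) and the on level (orange) of the 8 arrays as bands. Arrays of an age mostly cluster closely, with a wider spread at P90 in *Hbg1* (SD 0.52) and *Bex4* (SD 0.34). In each gene the ages are separated by the whole gap between the bands, as the rule of the classes requires.

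The 49 genes that were on at F16 and off at P90 were mainly those of dividing cells. By the same roles, 27 act in cell division, 5 in DNA repair or replication, 4 in blood cells and 13 elsewhere, with lower bounds of the fold from 8.0 to 97.4. *Cdk1*, the kinase that starts mitosis, had 6.23, 6.0, 6.20 and 6.09 at P90, against 10.33, 10.30, 10.31 and 10.33 at F16. The measured difference was -4.19 ± 0.06 (SE), at least 15.1-fold lower. *Bub1*, a kinase of the spindle checkpoint, had 5.47, 5.17, 5.41 and 5.81 at P90, against 10.48, 10.37, 10.40 and 10.33 at F16, at least 15.9-fold lower. *Plk4*, which drives the copying of centrioles, had 5.51, 5.37, 5.47 and 5.29 at P90, against 10.50, 10.44, 10.42 and 10.41 at F16, at least 16.4-fold lower. In all 3 genes the P90 arrays were in the receptor range and the F16 arrays above the on level, as the class requires. The F16 arrays formed a tight cluster. The class also held the kinesins *Kif4a*, *Kif11*, *Kif15*, *Kif23* and *Kif2c*, the kinetochore genes *Ndc80*, *Nuf2*, *Spc25* and *Ska3*, the spindle gene *Aspm*, and *Fancd2* and *Rad51c* of DNA repair.

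The largest measured fall was that of *Hbg1*, a globin gene, which also had the highest lower bound of the 49. Its signal was 5.99, 5.08, 4.79 and 5.50 at P90, against 12.99, 13.05, 12.96 and 13.04 at F16, with a measured difference of -7.67, at least 97.4-fold lower. *Rhag*, a membrane protein of red cells, had 5.44, 5.24, 5.52 and 4.99 at P90, against 12.37, 12.24, 12.14 and 12.21 at F16, at least 57.1-fold lower. Both were bright in every foetal liver and off in every adult one, as the class requires. The globin genes resemble each other, so the probes of *Hbg1* may also take up related transcripts.

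Genes outside blood and division were lost too. *Bex4* had 4.15, 4.00, 4.39 and 3.58 at P90, against 11.16, 11.18, 11.28 and 11 at F16, at least 26.9-fold lower. *Grb10*, an imprinted gene whose protein restrains insulin and growth factor signalling, had 6.24, 6.04, 5.93 and 5.89 at P90, against 11.51, 11.39, 11.48 and 11.60 at F16, at least 34-fold lower. *Lgr5*, a receptor that amplifies Wnt signals, had 6.07, 5.92, 5.91 and 6.01 at P90, against 9.74, 9.90, 9.54 and 9.66 at F16, at least 9.9-fold lower. None of these overlapped between the ages, which the rule of the class ensures. Of the 49 genes, 8.16% lie on the X chromosome (*Bex4*, *Kif4a*, *Slc38a5* and *Itm2a*), against 2.94% of all genes and 1.22% of the 82 genes on at P90.

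The limits of the classes are sharp while the signals are not. Just inside the F16 limit of the 82 genes were *Oas1i* and *Esr1*, whose highest F16 arrays lay 0.006 and 0.013 below the receptor level, and just outside it were *Lyc2* and *Mug2*, 0.008 and 0.024 above. At the P90 limit, *Ifi44l* and *Prlr* exceeded the on level by 0.042 and 0.043, while *Olr59* and *Bst2* missed it by 0.1 and 0.169. Among the 49 genes, *Stmn2* and *Aspm* lay 0.007 and 0.008 below the P90 receptor level, and *Nusap1* and *Bard1* exceeded it by 0.011 and 0.018. At the F16 limit *Prg2* and *Parpbp* exceeded the on level by 0.008 and 0.033, and *Tsx* and *Serpinb10* missed it by 0.01 and 0.048. *Olr59* is itself one of the receptor genes that set the level, with a mean of 9.10 at P90 and 5.44 at F16. Of the 226 receptor probe sets, 59 were called higher and 2 lower at P90, with a median difference of 0.13, and 2 were higher and 1 lower by over 2-fold.

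The promoters of the switched genes differed in what they contain. Windows from 250 bases before to 50 bases after the start (RefSeq, GRCr8) were matched for 67 of the 82 genes and 40 of the 49 genes, taking the first listed window of a gene, and motifs were searched on both strands. The 6 windows shown are of genes whose values are given above, 3 from each class, with the matches that fall in each in capitals.

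For the genes on at P90, capitals mark TATAAA (the TATA box), TTGCNNAA (a C/EBP site) and CCAAT (the CCAAT box, which reads ATTGG from the other strand). *Cyp2c11* lies at chr1:246174966-246175265, *Orm1* at chr5:81788259-81788558 and *Tat* at chr19:54856354-54856653, all on the plus strand.
Cyp2c11: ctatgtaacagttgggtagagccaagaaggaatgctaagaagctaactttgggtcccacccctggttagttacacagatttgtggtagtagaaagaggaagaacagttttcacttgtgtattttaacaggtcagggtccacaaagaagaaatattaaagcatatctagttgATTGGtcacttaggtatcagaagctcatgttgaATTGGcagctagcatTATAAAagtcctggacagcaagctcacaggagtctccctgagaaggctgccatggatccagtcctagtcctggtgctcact
Orm1: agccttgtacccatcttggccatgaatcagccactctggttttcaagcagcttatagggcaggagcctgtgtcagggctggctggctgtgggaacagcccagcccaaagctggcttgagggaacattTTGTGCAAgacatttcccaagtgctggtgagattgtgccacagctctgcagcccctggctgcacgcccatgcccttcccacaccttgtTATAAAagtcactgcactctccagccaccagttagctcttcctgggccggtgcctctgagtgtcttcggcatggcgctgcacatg
Tat: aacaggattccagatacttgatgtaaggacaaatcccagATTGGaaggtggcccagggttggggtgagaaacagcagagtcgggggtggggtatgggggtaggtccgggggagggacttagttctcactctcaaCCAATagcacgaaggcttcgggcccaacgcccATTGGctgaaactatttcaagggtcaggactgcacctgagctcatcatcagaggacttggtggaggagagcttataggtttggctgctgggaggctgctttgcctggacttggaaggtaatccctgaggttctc

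For the genes off at P90, capitals mark TTTGAA (the CHR, an element of cell cycle genes) and CCAAT, and TTCCCGCC (an E2F site) was searched too. *Cdk1* lies at chr20:19265043-19265342, *Aspm* at chr13:53625334-53625633 and *Kif4a* at chrX:69761633-69761932, all on the plus strand.
Cdk1: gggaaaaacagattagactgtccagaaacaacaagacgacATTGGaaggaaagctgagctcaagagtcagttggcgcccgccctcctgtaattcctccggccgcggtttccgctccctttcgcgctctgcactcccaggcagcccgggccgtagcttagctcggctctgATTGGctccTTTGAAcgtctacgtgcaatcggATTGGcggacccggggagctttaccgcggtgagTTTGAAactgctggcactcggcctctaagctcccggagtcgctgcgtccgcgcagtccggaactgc
Aspm: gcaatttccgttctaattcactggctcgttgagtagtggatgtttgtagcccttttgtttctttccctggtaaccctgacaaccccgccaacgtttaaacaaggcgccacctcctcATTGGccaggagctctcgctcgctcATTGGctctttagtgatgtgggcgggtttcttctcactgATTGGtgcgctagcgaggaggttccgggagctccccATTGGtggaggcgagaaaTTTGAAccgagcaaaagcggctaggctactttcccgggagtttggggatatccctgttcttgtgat
Kif4a: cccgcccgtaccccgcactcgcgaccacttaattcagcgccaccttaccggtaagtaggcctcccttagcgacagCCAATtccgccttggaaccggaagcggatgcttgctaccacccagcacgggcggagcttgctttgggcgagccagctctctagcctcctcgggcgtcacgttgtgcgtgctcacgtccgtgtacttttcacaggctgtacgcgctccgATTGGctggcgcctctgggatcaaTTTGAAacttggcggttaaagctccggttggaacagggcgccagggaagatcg

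In *Cyp2c11* TATAAA began 31 bases before the start and in *Orm1* 35 bases before it, while the window of *Tat* held none and had 3 CCAAT boxes. *Orm1* had a C/EBP match 123 bases before its start. In *Cdk1* a CHR began 72 and another 16 bases before the start, in *Aspm* 1 began 16 bases before it, and in *Kif4a* 1 began 3 bases before it. These windows held 3, 4 and 2 CCAAT boxes, no E2F match, and no overlap between matches.

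Over the classes, TATAAA was found in 18 of the 67 promoters on at P90 (26.9%) and in 0 of the 40 off at P90, against 14.2% of all 33469 RefSeq windows. TTGCNNAA was found in 23.9% and 7.5%, against 10.6% of all windows. TTTGAA was in 28.4% of the promoters on at P90 and 45% of those off at P90 (all windows 18.3%), CCAAT in 53.7% and 55% (all windows 37.5%), and TTCCCGCC in 0 and in 10% (all windows 1.91%). CAAAGTCCA (HNF4) was found in 1.49% of promoters on at P90, in 0 of those off at P90 and in 0.391% of all windows. AGATAA, the core site of the factor *Gata1* and its relatives, was in 11.9% and 7.5% (all windows 11.6%), and CCACACCC (the KLF motif) in 1.49% and 5% (all windows 3.22%). The 11951 windows of measured genes hold 1 window per gene, as the classes do. There the shares were 11.7% for TATAAA, 9.97% for TTGCNNAA, 15.2% for TTTGAA and 38.3% for CCAAT. They were 2.92% for TTCCCGCC, 0.393% for CAAAGTCCA, 9.32% for AGATAA and 3.39% for CCACACCC. The median number of CpG dinucleotides was 3 in promoters on at P90 and 25.5 in those off at P90, against 7 in all windows and 16 in the 11951 windows of measured genes. The median GC content was 45.7% in promoters on at P90 and 60% in those off at P90, against 51.7% in all windows and 58% in those of measured genes. A match of letters is not a binding site, and no test was made.

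The genes reached their adult class at different times. Of the 82 genes, 9 were first on at F22, 15 at P1, 3 at P4 and 55 (67.1%) only at P90. Their median signal was 5.40 at F16, 5.59 at F20, 6.42 at F22, 7.54 at P1, 7.92 at P4 and 11.20 at P90. The early group at F22 was *Mug1*, *Mug1l1*, *Fgl1*, *Pon1*, *Cyp2c22*, *Apcs*, *Serpina3l*, *Cyp7a1* and *Hsd17b13*, and *Tat* and *Orm1* followed at P1. Of the roles, secreted proteins were on before P90 in 8 of 12 genes, and esterases, oxidases, dehydrogenases and reductases in 3 of 14. The 11 interferon, macrophage and cell death genes were first on at P90, and their median changes were 2.35 in F22 minus F16, -1.09 in P4 minus F22 and 3.23 in P90 minus P4.

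Strictest of all, 9 genes lay in the receptor range on all 20 arrays from F16 to P4 and were on at P90. They were *Cyp2c11*, *Rup2*, *Dhrs7l1*, *Akr1c12*, *Ust5r*, *Sult1c2*, *Akr1c1*, *Slco1a4* and *Mup5*. *Akr1c12*, an aldo-keto reductase, had 11.22, 11.51, 11.37 and 11.43 at P90, against 4.56, 4.74, 4.66 and 4.67 at F16, at least 36.4-fold. *Slco1a4*, an uptake transporter for organic anions, had 11.43, 11.50, 11.34 and 11.59 at P90, against 5.34, 5.42, 5.56 and 5.47 at F16, at least 38.5-fold. Thus, by the rule of this stricter class, the enzyme and the transporter were both still at receptor signal on the fourth day of life.

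The 49 lost genes lasted longer. None was on at F16 and off from F20 onwards, and all 49 first entered the receptor range at P90. Of these, 6 were last on at F16, 19 at F20, 11 at F22, 1 at P1 and 12 at P4. Their median signal was 10.05 at F16, 10.04 at F20, 9.54 at F22, 8.38 at P1, 8.56 at P4 and 5.85 at P90. Among the 1976 genes lower by over 2-fold, the time at which the midpoint between the ends was first passed was counted. It was F20 in 79, F22 in 297, P1 in 838, P4 in 144 and P90 in 618. Among the 1446 genes higher by over 2-fold, these numbers were 102, 462, 407, 91 and 384.

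**Figure D3:**
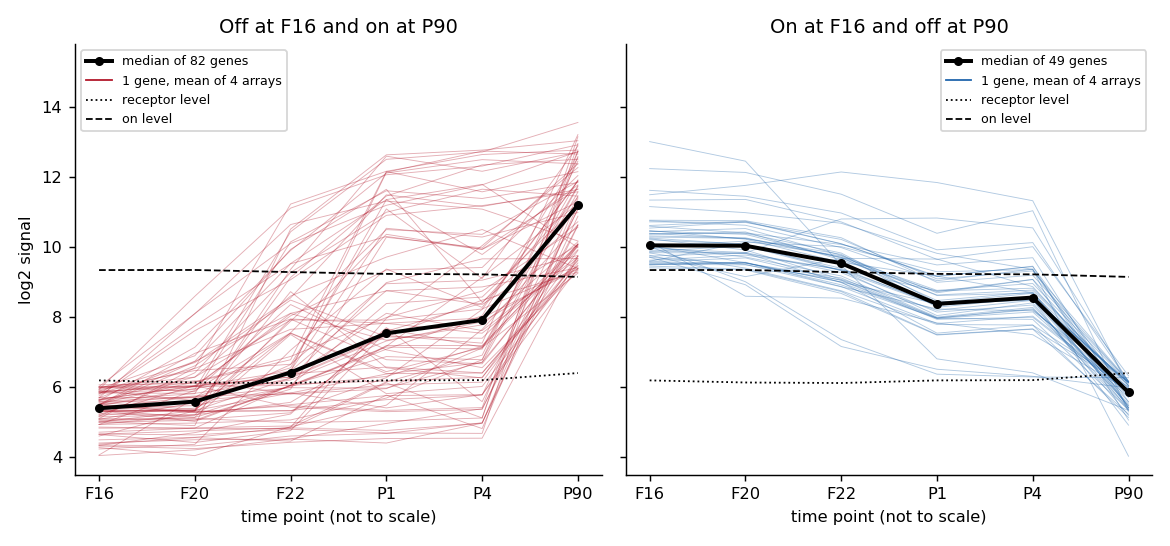
Mean log2 signal of 4 arrays at each of 6 time points for the 82 genes off at F16 and on at P90 (left) and the 49 genes on at F16 and off at P90 (right), with the class median in black. The median of the genes on at P90 passed the on level (dashed) only at P90, and the median of the genes off at P90 entered the receptor range (dotted) only at P90.

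Many hepatocyte genes were already on at F16. Of the 2129 genes on at both ends, 1833 were called, but the differences were bounded between -3.46 and 3.52, and in 201 genes the 95% confidence interval lay within 0.25 of 0. *Alb*, serum albumin, had 13.83, 13.86, 13.86 and 13.82 at P90, against 13.70, 13.68, 13.74 and 13.70 at F16, a difference of 0.14 that turned to -0.01 with receptor centring. *Apoa1*, the main protein of high-density lipoprotein, had 12.52, 12.49, 12.54 and 12.47 at P90, against 12.65, 12.78, 12.81 and 12.64 at F16. *Ttr* and *Rbp4*, which carry thyroid hormone and vitamin A, were higher by 0.55 and 0.45. Whether signals this bright still follow RNA amounts in proportion was not tested. The widest changes among genes on at both ends were those of *Cdo1*, which oxidises cysteine (3.52), and of the histone gene *H4c14* (-3.46).

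The wider gene lists hold switched genes together with other genes of a pathway. Each count is to be read against the 38.9% of all genes higher and the 34.2% lower at P90. The lists overlap the classes. Off at F16 and on at P90 were 12 of the 41 cytochromes P450, 10 of the 29 conjugating enzymes and 10 of the 12 sex-dependent genes. On at F16 and off at P90 were 9 of the 25 cell division genes. The direction of such members was set by the class, so these counts are not separate evidence for the switches. Of 41 cytochromes P450 of drug and steroid metabolism, 35 rose, 1 fell and 5 were not called, with a median difference of 3.93, or 3.79 with genes of the receptor range set to the receptor level. *Cyp2e1*, which oxidises ethanol, had 13.08, 13.13, 13.11 and 13.17 at P90, against 6.62, 6.25, 6.18 and 6.11 at F16. *Cyp1a2*, an enzyme of drug and caffeine clearance, had 11.56, 11.68, 11.47 and 11.62 at P90, against 6.10, 6.29, 6.14 and 6.03 at F16. *Cyp2e1* exceeded the receptor level of the array on 2 foetal arrays and *Cyp1a2* on 1, so neither was off at F16. *Cyp1a1* was not called (0.31, adjusted p = 0.37). Of 29 conjugating enzymes 27 rose and 2 fell, with a median of 2.76 over the 29, or 2.74 with that setting. The 2 that fell were the glutathione transferases *Gstp1* (-1.66) and *Gsta3* (-1.59). Among 12 genes known to be sex-dependent in adult rat liver, 11 rose and *Cyp17a1* was not called, with a median of 7.16 over the 12, or 5.71 with that setting.

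All 17 measured genes of bile acid synthesis and export rose, by a median of 3.51. *Cyp8b1*, which makes cholic acid, had 12.29, 12.32, 12.28 and 12.33 at P90, against 5.71, 6.43, 6.07 and 6.21 at F16, a difference of 6.20. *Abcb11*, the bile salt export pump, had 12.24, 12.27, 12.20 and 12.28 at P90, against 6.08, 6.49, 6.25 and 6.45 at F16, a difference of 5.93. The ages did not overlap in either. *Slc10a1*, the bile acid uptake carrier, rose by 4.94, and the bile acid receptor *Nr1h4* by 3.46. Of 25 organic ion and ABC transporters 17 rose and 5 fell, with *Abcg2* lowest at -1.67.

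Most genes of nitrogen handling rose. Of 26 genes of amino acid breakdown, 25 rose and *Got1* was not called, with a median of 2.77 over the 26, or 2.66 with genes set to the receptor level. Of 8 urea cycle genes 7 rose and *Arg2* was not called, with a median of 2.36 over the 8. *Cps1*, the first enzyme of the urea cycle, had 13.12, 13.14, 13.13 and 13.17 at P90, against 7.70, 7.62, 7.13 and 7.47 at F16, a difference of 5.66. Of 12 genes of gluconeogenesis 8 rose, 1 fell and 3 were not called, with a median of 1.51 over the 12. *Pck1*, the key enzyme of gluconeogenesis, had 12.84, 12.77, 12.83 and 12.79 at P90, against 6.74, 6.55, 6.60 and 6.47 at F16, and *G6pc1*, which releases glucose, differed by 6.28. In *Cps1*, *Pck1* and *G6pc1* every adult array exceeded every foetal one. Of 23 genes of fatty acid oxidation and ketogenesis 18 rose, with a median of 1.34 over the 23, among them *Pdk4* and *Cpt1a*, the gate for fatty acids into mitochondria (4.13).

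Plasma proteins rose more unevenly. Of 27 acute phase and other plasma proteins, 26 rose and 1 fell, with a median of 1.64 over the 27, among them *Alb* at 0.14 and *Mug1* at 115-fold or more. *Hp*, which binds free haemoglobin, had 13.22, 13.27, 13.22 and 13.25 at P90, against 7.66, 7.47, 7.41 and 7.64 at F16, a difference of 5.70. *A2m*, a protease inhibitor that is a foetal and acute phase protein in rats, ran the other way with 7.22, 7.23, 7.13 and 7.16 at P90, against 11.79, 12.04, 12.04 and 11.71 at F16. Neither overlapped between the ages. All 19 complement genes rose, by a median of 2.30 (2.15 with genes set to the receptor level), with *C9* of the membrane attack complex at 6.20. Of 20 coagulation factors 18 rose, with a median of 1.50 over the 20, and *F13a1* fell at least 10.3-fold.

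Of 27 hepatocyte transcription factors, 23 rose, none fell and 4 were not called, with a median of 1.55. *Hnf4a* rose by 1.36, *Cebpa* by 2.36, *Onecut1* by 2.11 and *Zbtb20*, a repressor of *Afp* in mice, by 3.12. *Zbtb20* had 11.04, 11.04, 10.94 and 10.96 at P90, against 7.98, 7.71, 7.92 and 7.92 at F16. None of these 4 was in the receptor range at F16.

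The growth factors of foetus and adult moved apart. Of 14 genes of the growth hormone and IGF axis, 9 rose and 5 fell. *Igf1*, the postnatal growth factor, had 13.22, 13.19, 13.23 and 13.23 at P90, against 10.10, 9.15, 9.92 and 10.38 at F16, a difference of 3.33. *Igf2*, the foetal growth factor, had 6.88, 6.94, 6.83 and 6.70 at P90, against 12.38, 12.33, 12.42 and 12.45 at F16, a difference of -5.56 ± 0.05 (SE, adjusted p = 4.3e-27). The 2 factors moved in opposite directions, and the ages did not overlap in either. *Ghr*, the growth hormone receptor, rose by 2.95 and *Igfals*, which holds IGF in the blood, by 4.15. All 12 imprinted growth genes measured fell, by a median of -3.37, among them *H19* (-5.25) and *Dlk1* (-4.38).

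Of 16 oncofoetal genes, those known from foetal liver and again from liver tumours, 13 fell, 2 rose and 1 was not called, with a median of -1.29. *Afp*, alpha-foetoprotein, had 8.40, 7.66, 7.39 and 7.61 at P90, against 13.48, 13.45, 13.54 and 13.48 at F16, a difference of -5.72. *Gpc3*, a cell surface proteoglycan, had 6.67, 6.62, 6.87 and 6.44 at P90, against 12, 11.91, 11.92 and 12.01 at F16. Both were far lower in every adult liver, but neither was off on all 4 P90 arrays. The 2 that rose were *Spink1* (at least 3.7-fold, from receptor range at F16) and *Epcam* (1.75).

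All 25 cell division genes fell, by a median of -4.19, and all 27 DNA replication genes, by a median of -3.08. With genes of the receptor range set to the receptor level the medians were -3.94 and -3.05. *Top2a*, which untangles replicated DNA, had 7.03, 6.85, 6.83 and 6.89 at P90, against 11.67, 11.54, 11.61 and 11.54 at F16. *Mcm6*, a subunit of the replicative helicase, had 6.41, 6.44, 6.41 and 6.42 at P90, against 11.07, 11.04, 11.15 and 11.06 at F16. All 30 cytosolic ribosomal proteins fell, within the narrow range of -1.56 to -0.67, and all 18 nucleolar genes of ribosome assembly, by a median of -1.59. Of 12 genes of DNA methylation and Polycomb silencing 10 fell, with *Ezh2* at -3.20 and *Dnmt1* at -2.47.

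**Figure D4:**
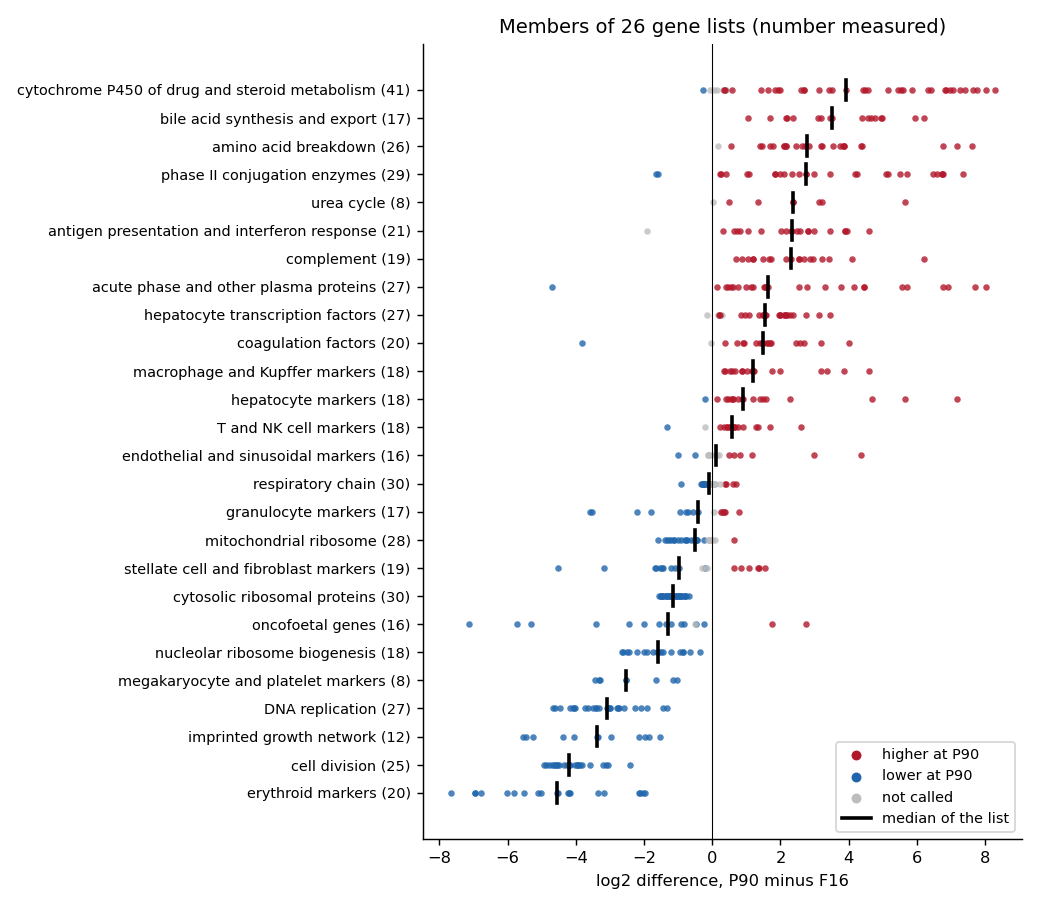
Log2 difference P90 minus F16 of each measured member of 26 gene lists, with members called higher in red, called lower in blue and not called in grey, and the list median as a bar. The P450, bile acid and amino acid lists lie at the top with medians of 3.93, 3.51 and 2.77, and the cell division and erythroid lists at the bottom with -4.19 and -4.54.

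For several enzymes and carriers one form was higher at P90 and a related form lower. *Mat1a*, the adult liver form of methionine adenosyltransferase, had 12.48, 12.50, 12.47 and 12.48 at P90, against 7.70, 8.02, 7.75 and 7.36 at F16, whereas *Mat2a*, the form of other tissues, had 9.95, 9.84, 9.89 and 9.96 at P90, against 12.20, 12.29, 12.23 and 12.13 at F16. In the same way *Fabp1* rose by 4.63 and *Fabp5* fell by 2.69, both carriers of fatty acids. *Scd* rose by 2.12 and *Scd2*, also a fatty acid desaturase, fell by 4.23. The glucose carrier *Slc2a2* rose by 1.48 and *Slc2a1* fell by 2.42. *Hk1*, a hexokinase, had 7.23, 7.27, 7.20 and 7.26 at P90, against 11.10, 11.23, 11.16 and 11.08 at F16. In each of these the adult and foetal arrays did not overlap. *Arg1* rose by 3.23 while *Arg2* was not called (0.03), and *Acacb* rose by 3.30 against 0.55 for *Acaca*, whose call was lost with receptor centring and without any of the arrays but F16 replicate 3 (0.52 to 0.56).

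**Figure D5:**
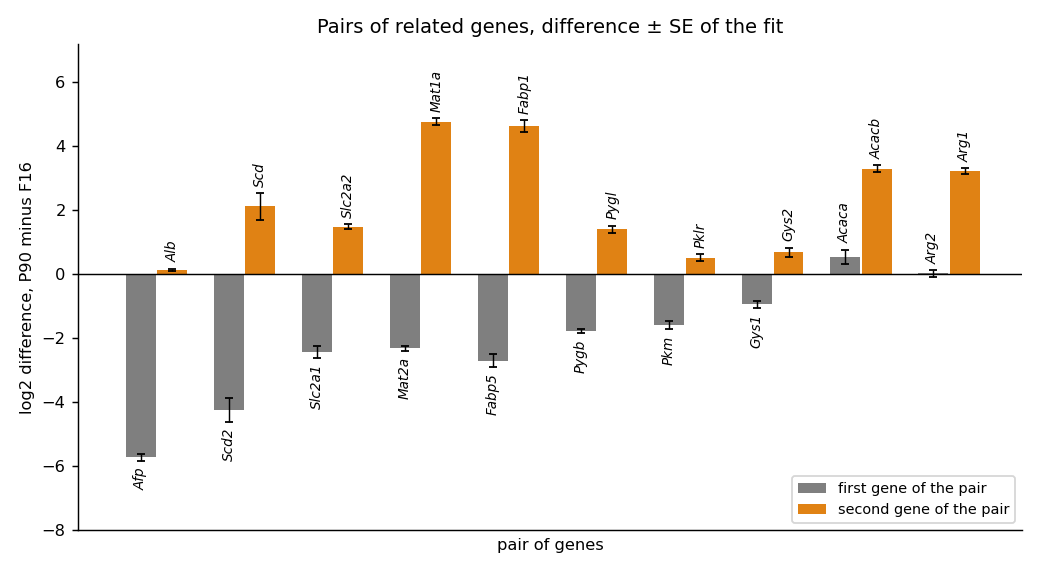
Log2 difference P90 minus F16 with its standard error for 10 pairs of related genes, drawn side by side as bars. In 8 pairs the members lie on opposite sides of 0, as with *Mat1a* at 4.78 and *Mat2a* at -2.31, though *Alb* turned to -0.01 with receptor centring, and in the acetyl-CoA carboxylase and arginase pairs neither member fell.

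The mitochondrial lists held small differences. Of 30 genes of the respiratory chain, 4 rose, 11 fell and 15 were not called, with a median of -0.09 whose sign turned under another scaling. Under the scalings 4 to 12 of them rose and 2 to 19 fell, so the list has no firm balance. *Ndufs4*, of complex I, was the lowest at -0.92 and *Ndufa1*, of the same complex, the highest at 0.70. Of 28 mitochondrial ribosomal proteins 20 fell and 1 rose (*Mrpl15*, 0.65). Of 12 genes of coenzyme Q synthesis, 5 rose, 5 fell and 2 were not called, and the sign of their median of 0.00 depended on the scaling. *Coq8a*, an atypical kinase needed for that synthesis, had 11.27, 11.29, 11.25 and 11.35 at P90, against 7.62, 7.46, 7.63 and 7.50 at F16, a difference of 3.74 ± 0.10 (SE, adjusted p = 1.1e-19). The other 11 genes lay between -0.82 (*Coq10b*) and 1.62 (*Coq10a*). The call of *Coq10b* was lost without any of the arrays but F16 replicate 4 (-0.84 to -0.76). It was also lost with a further quantile normalisation (-0.59) and with centring on the median of the probe sets with 1 symbol (-0.69). The same held with the trend and robust options of eBayes (-0.82). Its direction held in all of these.

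Iron and the clock also differed. *Hamp*, the iron hormone hepcidin, had 12.79, 12.80, 12.74 and 12.76 at P90, against 8.03, 7.92, 7.49 and 7.90 at F16, and *Tfrc*, the transferrin receptor by which red cell precursors take up iron, had 8.43, 8.34, 8.34 and 8.65 at P90, against 12.66, 12.59, 12.66 and 12.62 at F16. Of 14 clock genes 8 rose and 3 fell, with *Nr1d1* highest at 4.42 and *Cry1* lowest at -1.79. Neither labels nor methods state the hour of sampling, so time of day and age cannot be told apart for the clock genes.

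Other cell types moved with these changes. All 20 erythroid markers measured fell, by a median of -4.54, and their mean signal was 7.26 to 7.46 over the P90 arrays, against 11.93 to 11.99 over the F16 arrays. *Hbe1*, embryonic globin, had 7.02, 6.24, 6.42 and 6.46 at P90, against 13.46, 13.55, 13.41 and 13.59 at F16. *Slc4a1*, the anion exchanger of the red cell membrane, had 7.57, 7.68, 7.40 and 7.38 at P90, against 13.03, 13.05, 13 and 12.98 at F16. The master factors of red cells *Gata1* and *Tal1* fell by 4.53 and 3.36, and 7 of 8 haem synthesis genes fell, with *Alas1*, the form used by liver, the one that rose (0.60). The share of F16 RNA that came from blood-forming cells, and its part in the fall of the division and ribosome genes, was not tested.

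All 8 megakaryocyte and platelet markers fell, by a median of -2.53. Of 17 granulocyte markers 9 fell, 5 rose and 3 were not called, with *Mpo* of granule-forming cells at -3.53. The median over the 17 was -0.43, or 0.05 with genes of the receptor range set to the receptor level, so the list has no firm direction. All 18 macrophage and Kupffer cell markers rose, by a median of 1.18, and their mean signal was 9.32 to 9.50 over the P90 arrays, against 7.76 to 7.89 over the F16 arrays. *Clec4f*, a Kupffer cell lectin in rodents, had 10.01, 10.21, 9.98 and 10.25 at P90, against 6.59, 6.90, 6.84 and 6.67 at F16, a difference of 3.36. Of 18 T and NK cell markers 16 rose and *Nkg7* fell. Their median was 0.59, or 0.32 with genes of the receptor range set to the receptor level. Of the 18, 7 lay in the receptor range at both ages and 9 at F16, so part of the count rests on signal near that level. The receptor probe sets themselves leaned upward, with 59 of 226 called higher and 2 lower. Of 21 genes of antigen presentation and interferon response 20 rose, with a median of 2.33 over the 21. Among them was *Cd74*, the invariant chain of class II molecules (4.60). *Ifit1* was not called (adjusted p = 0.074), with 4.86, 4.80, 4.52 and 4.72 at P90, against 8.90, 4.94, 5.0 and 7.66 at F16. It was called in the limma fit of the 8 arrays alone (adjusted p = 0.042), with array weights (0.045), without F16 replicate 2 (-2.47) or without F16 replicate 3 (-2.45), over a range of adjusted p from 0.032 to 0.29 under all alternatives.

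Of 16 endothelial markers 6 rose, 2 fell and 8 were not called, with a median of 0.11 that changed sign with the scaling, and the 2 highest were genes of sinusoidal endothelium, *Fcgr2b* (4.36) and *Dnase1l3* (2.99). Of 19 stellate cell and fibroblast markers 6 rose and 11 fell, with a median of -0.97 over the 19. *Postn*, a matrix protein of fibroblasts, had 4.93, 5.0, 5.0 and 4.71 at P90, against 9.88, 8.57, 9.34 and 9.97 at F16. *Col1a1*, a chain of type I collagen, had 8.44, 8.46, 8.38 and 8.27 at P90, against 10.38, 9.23, 10.04 and 10.55 at F16. The second F16 liver was the lowest of its group in both, and the mean signal of the list was 8.29 to 8.49 over the P90 arrays and 8.68 to 9.36 over the F16 arrays. The part of this liver's stromal content in other results was not tested. Of 9 mesothelial markers 5 fell, 3 rose and 1 was not called, with a median of -0.54 over the 9 and *Podxl* lowest at -3.97. Of 9 mast cell markers 3 rose and 3 fell, with a median of 0 over the 9. The lowest was *Hdc*, which makes histamine, at -5.05.

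The ends hide some genes that were high only in between. One gene, *Abcd2*, a peroxisomal transporter of fatty acids, was on only between the ends: its mean signal was 6.09 at F16, 6.97 at F20, 8.60 at F22, 10.74 at P1, 10.94 at P4 and 5.33 at P90. In 251 genes a time in between exceeded both ends by over 2-fold, peaking at F20 in 5, F22 in 76, P1 in 126 and P4 in 44, and 98 of these were not called between P90 and F16. *Cyp17a1*, a steroid hydroxylase, was the most marked, with 8.09 at P90 and 8.15 at F16 (difference -0.06, adjusted p = 0.79) but 13.34 at P4. *Alox15*, a lipoxygenase, had 7.34 at P90 and 7.21 at F16, but 12.11 at P4. The reverse, a dip of over 2-fold below both ends, was seen in 39 genes. *Serpina6*, the carrier of corticosteroids in blood, fell to 8.65 at P4, with 12.73 at P90 and 13.28 at F16, and *Idi1* and *Msmo1* of cholesterol synthesis dipped by 2.27 and 1.82 at P1.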

How the data were processed

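RNA of each liver was hybridised to an Affymetrix Rat Gene 1.0 ST array. The authors normalised the arrays by RMA in Affymetrix Expression Console, with its version not stated, and deposited the values as log2 signals per probe set. From the 29214 probe sets, the 15310 with 1 gene symbol in the platform annotation were tested (15279 matched a gene record), while 323 with several symbols and 13581 without one were left out. A gene with several probe sets (527 genes) was described by the one with the highest mean. The model (lmFit, then eBayes, of limma version 3.58.1 under R version 4.3.3) held all 24 liver arrays in 6 groups, its contrast was P90 minus F16, and p-values were adjusted by Benjamini-Hochberg over all probe sets tested. The script was tested on simulated data. The number of arrays limits the precision, and the median SD within an age was 0.082 at P90 and 0.092 at F16. All liver arrays carry 1 run code, and no batch is named in the labels. Replicate numbers did not pair the ages and were not used as a block. Muscle arrays were not used here. Genes were named by a rule: the largest differences in each direction, in each class and in each list, members of a list called against its median, all isozyme pairs and all oncofoetal genes. All other genes in the text, and the roles, were picked with the values in view. The groups, classes and lists were chosen with earlier results of these data known. Promoter windows and coordinates are those of RefSeq on GRCr8. Alternatives varied the scaling, the filter, the weights, the limits of the classes and the arrays used. List medians with genes of the receptor range set to the receptor level of each array were added after the data were seen, and a gene in that range at both ages then counted as 0.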

Additional observations from a re-analysis of the deposited data

Results flagged for a closer look

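In 346 groups of 4 arrays (173 named genes at each age), 11 held 1 array far from the other 3 relative to the group's range, 7 at P90 and 4 at F16. Chance gives about 1 in 20 groups. At P90 these were *Coq10b* (8.02 on replicate 2, the others 8.17 to 8.20), *Cyp2c11* (12.99 on replicate 2, the others 12.95), *Dio1* (11.67 on replicate 1, the others 11.63 to 11.64), *Esr1* (9.59 on replicate 4, the others 9.62 to 9.63), *Lyc2* (11.6 on replicate 3, the others 11.43 to 11.45), *Psmb6* (10.03 on replicate 1, the others 9.96 to 9.97) and *Thrsp* (12.63 on replicate 3, the others 12.50 to 12.51). At F16 they were *Cyp17a1* (8.42 on replicate 1, the others 8.03 to 8.09), *Got1* (10.17 on replicate 4, the others 10.32 to 10.34), *Igfals* (7.74 on replicate 1, the others 7.54) and *Ska3* (11.52 on replicate 4, the others 11.65 to 11.66). The gaps are small against the differences between the ages, except in *Coq10b*, *Got1*, *Psmb6* and *Cyp17a1*.

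Among the 13904 probe sets without a single gene symbol, which the comparison left out, 8056 were called. Of these probe sets, 42 were off at F16 and on at P90, and 100 were on at F16 and off at P90.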

How the results depend on the processing

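With the replicate number as a block, 11193 probe sets were called (5759 higher and 5434 lower at P90), with 5589 genes higher and 4961 lower, and the classes held 82, 49, 9 and 0 genes (for the classes this setting was chosen after seeing the data). The numbers do not pair the samples: deviations of same-numbered arrays correlated at 0, 0.02, -0.01 and -0.09, and 0 of 4 F16 arrays correlated best with their own number. Centring each array on its receptor median left 3541 probe sets and 3445 genes higher at P90, and turned *Alb* to -0.012. With the off level at the 90th percentile of the receptor probe sets, 48 genes were off at F16 and on at P90 and 23 the reverse. At the 99th percentile 100 genes were on at F16 and off at P90. With the on level at the median, 109 genes were on at F16 and off at P90 and 16 were off to P4 and on at P90, and at the 90th percentile the 2 main classes held 50 and 9 genes. Leaving out each array in turn gave 10680 to 11012 called probe sets, 5343 to 5685 higher and 5306 to 5388 lower, 5189 to 5521 genes higher and 4846 to 4922 lower, and classes of 82 to 87, 49 to 54, 9 and 0 genes. The other counts stayed within 1.5 times the main ones. Of 2929 values of 173 named genes under up to 17 alternatives, 2898 kept direction and side of the threshold, 22 were no longer called, 8 became called and 1 changed sign, over 9 genes: *Acaca*, *Alb*, *Apoa1*, *Coq10b*, *Cyp1a1*, *Got1*, *Idi1*, *Ifit1* and *Serpina6*. Array signals are relative, so equal RNA output per cell at both ages is assumed, and probe sets of close relatives may share targets.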

Other observations

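*Tbp* and *Psmb6*, which served as reference genes for quantitative PCR in liver, both differed between the ends. The paper describes that assay for early development and left the adult liver arrays out of its conclusions. A difference between F16 and P90 therefore does not measure how steady these genes were over the ages of that assay. *Tbp* averaged 8.79 ± 0.11 at P90 and 10.39 ± 0.06 at F16 (SD, n = 4 each), a difference of -1.61 ± 0.06 (SE, adjusted p = 3.6e-17 in the limma fit). *Psmb6*, a proteasome subunit, averaged 9.98 ± 0.03 at P90 and 10.62 ± 0.04 at F16, a difference of -0.64 ± 0.05 (SE, adjusted p = 2.0e-10).

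Genes of fatty acid and cholesterol synthesis did not move as 1 list. Of 25 measured, 15 were higher at P90, 3 were lower and 7 were not called, with a median of 0.55. *Thrsp*, a gene of lipid synthesis under thyroid hormone, had 12.50, 12.51, 12.63 and 12.51 at P90, against 6.65, 6.46, 6.46 and 6.31 at F16, a difference of 6.07. *Elovl6*, which lengthens fatty acids, had 8.52, 8.65, 8.33 and 8.51 at P90, against 10.85, 11.28, 10.78 and 10.92 at F16, a difference of -2.45. Of 15 pericentral Wnt targets 10 were higher and 2 lower at P90, and *Lgr5* (-3.73) and *Cyp2e1* (6.83) were the extremes.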
